A study of Mus musculus with 6 samples.

Results

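The genes of the mitochondrial genome were examined in 3' mRNA sequencing libraries from 6 small intestine tumors. GENCODE release M21 annotates 37 such genes, 13 for mRNAs, 2 for rRNAs and 22 for tRNAs, all with symbols that start with mt-. Of these, 25 had a row in the table of 21878 genes, namely 8 mRNAs, both rRNAs and 15 tRNAs, and the other 12 were not analysed here. All mice carried floxed Prkci and Prkcz alleles (Prkcif/fPrkczf/f), the genes of the atypical protein kinases C, together with Villin-Cre, a recombinase driven by a promoter of intestinal epithelial cells. PEGPH20, a pegylated hyaluronidase that breaks down the matrix polymer hyaluronan, was given at 0.0375 mg/kg from 11 weeks of age, 2 times per week for 3 weeks, and these tumors are PEGPH20 replicates 4, 5 and 6. Mice of the same genotype and age received vehicle, and their tumors are vehicle replicates 1, 2 and 3. All tumors came from animals 14 weeks old. The labels do not tie tumors to individual animals, and p-values therefore cover the spread among these 6 samples, which may be partly technical.

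The mitochondrial genome is a small circle transcribed from both strands into long precursors. Its mRNAs encode subunits of the respiratory chain and of ATP synthase, its rRNAs build the mitochondrial ribosome, and its tRNAs lie between the longer genes, where their excision releases the neighbouring RNAs. Most mitochondrial mRNAs in mammals carry short poly(A) tails, while mature tRNAs end in CCA added after cleavage. The libraries were primed on stretches of A, so a tag assigned to a tRNA need not come from a mature tRNA.

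The values are CPM, the reads of a gene per 1000000 reads assigned to genes. PEGPH20 libraries held 2197222 to 2832876 reads and vehicle libraries 2075588 to 2616142 reads, so that 1 read was worth 0.353 to 0.482 CPM and a count of 0 allowed up to 1.06 to 1.45 CPM, which covers counting error only. PEGPH20 replicate 5 was the least like the rest: across genes it correlated with them at 0.836 to 0.901, while pairs of the other 5 libraries reached 0.945 to 0.979. It was the highest library for 19 of the 20 mitochondrial genes that could be tested, so results are also given without it. The summed level of 7 epithelial markers (Vil1, Epcam, Cdx1, Cdx2, Cdh17, Krt20 and Lgals4) was 5337 to 5907 CPM in PEGPH20 and 4834 to 5267 CPM in vehicle tumors, with none at 0. Of these only Epcam did not overlap, at 1927, 1668 and 1709 CPM in PEGPH20 and 1266, 1395 and 1560 CPM in vehicle tumors. The other epithelial markers overlapped, among them Lgals4, at 1408, 1048 and 1198 CPM in PEGPH20 and 1177, 1285 and 1454 CPM in vehicle tumors. The 6 fibroblast markers summed to 586 to 1608 CPM in PEGPH20 and 2962 to 3051 CPM in vehicle tumors, and the 4 endothelial markers to 55.8 to 92.5 CPM and 141 to 156 CPM in the same order, again with none at 0. Of the fibroblast markers only Lum overlapped, at 22.6, 8.75 and 12.3 CPM in PEGPH20 and 29.4, 19.9 and 16.8 CPM in vehicle tumors. Sums of smooth muscle and of erythroid markers overlapped. Those of enteric glia and neuron markers and of pancreatic acinar markers were lower without overlap in PEGPH20 tumors. Of 7 immune markers 6 had a row, and they summed to 2729 to 3489 CPM in PEGPH20 and 1772 to 2167 CPM in vehicle tumors, most of it Jchain, a plasma cell gene, at 2631 to 3389 CPM in PEGPH20 and 1674 to 2002 CPM in vehicle tumors. The neutrophil gene S100a8 went the other way, at 14.1, 2.08 and 10.9 CPM in PEGPH20 and 93.0, 21.4 and 32.5 CPM in vehicle tumors, and Cd3e, Csf1r and Cd68 overlapped. Like Jchain, Ptprc was higher without overlap, at 51.9, 73.8 and 55.1 CPM in PEGPH20 and 38.1, 35.2 and 35.2 CPM in vehicle tumors. In bulk tissue a different mix of cells and a different amount of RNA per cell cannot be told apart. The part of these shifts in the mitochondrial values was not tested.

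The genes without a row were not spread evenly over the genome. On GRCm38, 9 of the 12 lie among the 11 genes between mt-Ts1 and mt-Nd4l (chrM:6870-10173), which include the mRNAs mt-Co2, mt-Atp8, mt-Atp6, mt-Co3 and mt-Nd4l. The remaining genes of that stretch, mt-Nd3 and mt-Tr, had 3 and 11 reads in all 6 libraries. A block of 7 annotated pseudogenes on chromosome 1 (chr1:24611535-24616197) matched 8 mitochondrial mRNA genes, in whole or in part, at 99.7% to 100% identity. For mt-Atp8 the match covered only 43 of 204 bases, the stretch that it shares with mt-Atp6. Those pseudogenes themselves had 5 reads in all libraries together, and 3 of them had no row.

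That block reaches into measured genes as well. Gm28439 matched the first 876 bases of mt-Nd4 without a mismatch and left its last 502 bases uncovered. Gm29216 matched the last 483 bases of mt-Co1, which is where 3' tags fall, with a single difference, A1066T, counted from 1 at the 5' end of mt-Co1 (its base first, then that of the pseudogene). The 2 sequences are shown from base 1063 of mt-Co1 on, with the base that differs in capitals, and the 479 bases of mt-Co1 after it are the same in both, longer than a read of 75 nt.
mt-Co1: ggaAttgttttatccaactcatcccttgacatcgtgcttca
Gm29216: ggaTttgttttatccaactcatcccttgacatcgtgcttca
The treatment of reads that match both places was not stated in any source at hand. The level of mt-Co1 is therefore uncertain, and what kept genes out of the table was not tested. Other annotated copies with reads were less alike. Gm13340, a chromosome 2 copy of mt-Co1 at 97.6% identity, had 112 reads in all, Gm13341, a chromosome 2 copy of mt-Co2 at 95.9%, had 353, and Gm4076, a chromosome 13 copy of part of mt-Nd5 at 95.2%, had 161.

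The 25 mitochondrial genes with a row together took 16.7% to 21.7% of reads in PEGPH20 libraries and 16.3% to 17.4% in vehicle libraries. These groups overlapped. Sums and ratios here and below cover only genes with a row, which are 8 of 13 mRNAs, 2 of 2 rRNAs and 15 of 22 tRNAs. They leave out the mRNAs mt-Co2, mt-Atp8, mt-Atp6, mt-Co3 and mt-Nd4l. The classes differed in how far they moved. The summed tRNA level was 499, 688 and 420 CPM in PEGPH20 replicates 4, 5 and 6, against 251, 242 and 255 CPM in vehicle replicates 1, 2 and 3. Every PEGPH20 library was thus above every vehicle library, and the log2 difference was 1.07, or 0.88 without PEGPH20 replicate 5. The summed mRNA level was 39579, 51526 and 39858 CPM in PEGPH20 tumors, against 33405, 33363 and 36358 CPM in vehicle tumors. These groups did not overlap either, at a log2 difference of 0.33, or 0.21 without replicate 5. The summed rRNA level was 127025, 164363 and 151710 CPM in PEGPH20 tumors and 140432, 135829 and 126160 CPM in vehicle tumors, which overlapped (log2 difference 0.13, or 0.051 without replicate 5). No p is given for sums over genes that were chosen with earlier results known.

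**Figure D1:**
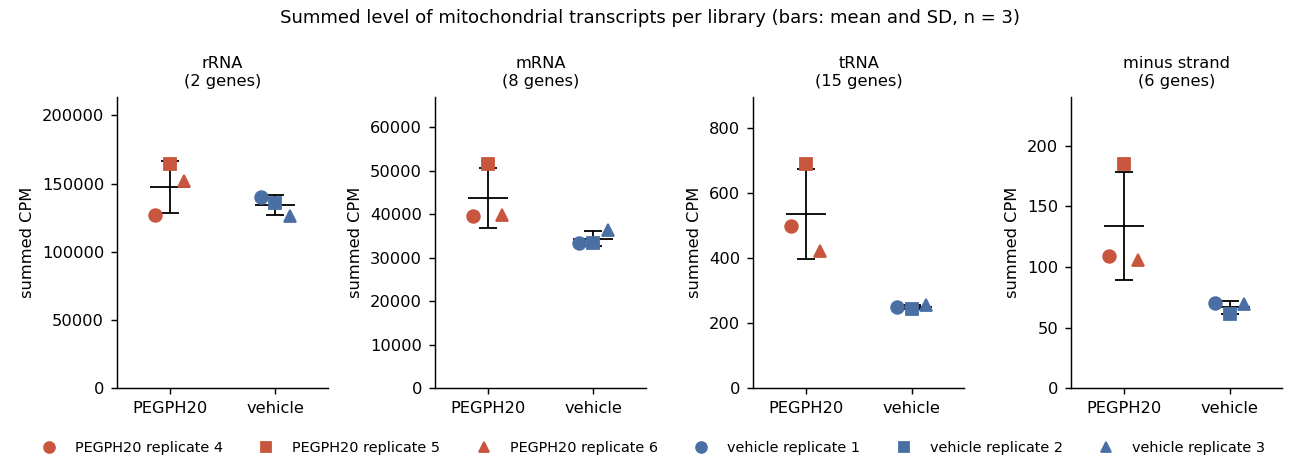
Summed CPM of the mitochondrial rRNAs, mRNAs, tRNAs and of the genes on the minus strand in each library, PEGPH20 left and vehicle right, with the group mean and SD as black bars (n = 3). The 3 PEGPH20 libraries lie above all vehicle libraries for mRNA, tRNA and the minus strand, and overlap them for rRNA. Only genes with a row are summed.

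Among reads of the genes with a row, tags of the tRNA class made up a larger part of mitochondrial reads in PEGPH20 tumors. They were 0.298%, 0.318% and 0.219% of mitochondrial reads in PEGPH20 replicates 4, 5 and 6, against 0.144%, 0.143% and 0.156% in vehicle replicates 1, 2 and 3. Per 1000 mRNA reads there were 12.6, 13.4 and 10.5 tRNA reads in PEGPH20 tumors and 7.50, 7.27 and 7.002 in vehicle tumors. The groups did not overlap in either measure, and without replicate 5 the log2 difference of tRNA reads per mRNA read was 0.67. Per 1000 rRNA reads there were 312, 313 and 263 mRNA reads in PEGPH20 tumors and 238, 246 and 288 in vehicle tumors, which overlapped.

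Among 11389 genes tested with limma on log2(CPM + 1), 3 rose and 6 fell in PEGPH20 tumors at an adjusted p under 0.05. Under TMM scaling 4 rose and 5 fell, and with values per 1000000 nuclear reads 3 rose and 3 fell. Of the 25 mitochondrial genes, 20 passed the filter on low values, 18 of them at a level of 3.99 CPM in all 6 libraries and the others, mt-Tc and mt-Tf, in libraries of both groups, and 1 of the 20 rose and 0 fell, where 0.0263% of all genes tested rose, 0.0527% fell and 0.079% did either. That gene was mt-Ta. Of the 20, 19 had a difference above 0, with a median of 0.43 on the log2(CPM + 1) scale, against -0.09 over all genes tested, and without PEGPH20 replicate 5 these medians were 0.20 and -0.01. In 12 of the 20 every PEGPH20 library was above every vehicle library, as in 9.71% of all genes tested. The median difference was 0.96 over 11 tRNAs, 0.22 over 7 mRNAs and 0.14 over the 2 rRNAs, and 0.73, 0.11 and 0.06 without replicate 5. The 5 genes not tested, mt-Nd3, mt-Tw, mt-Tr, mt-Ts2 and mt-Te, had 2 to 31 reads each in all libraries.

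**Figure D2:**
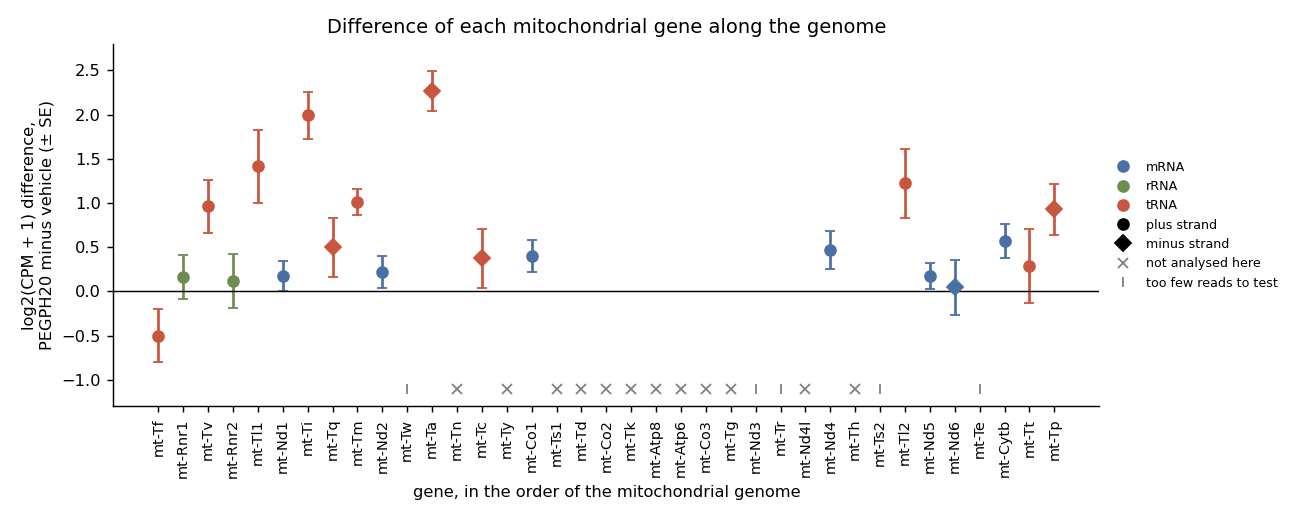
Log2(CPM + 1) difference of each mitochondrial gene, PEGPH20 minus vehicle with its SE, in the order of the genes on the mitochondrial genome; circles are genes on the plus strand and diamonds genes on the minus strand, grey crosses are genes not analysed here and grey ticks genes with too few reads. The 3 largest differences belong to the tRNA genes mt-Ta (2.27), mt-Ti (1.99) and mt-Tl1 (1.42), while the rRNAs lie at 0.16 and 0.12.

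The rRNAs of the small and the large mitochondrial ribosomal subunit did not pass the test. mt-Rnr1, the small subunit rRNA, was at 37748, 50010 and 45463 CPM in PEGPH20 tumors and 41469, 39243 and 37665 CPM in vehicle tumors (log2 difference 0.16, SE 0.25, limma adjusted p = 0.748). mt-Rnr2, the large subunit rRNA, was at 89276, 114353 and 106247 CPM in PEGPH20 tumors and 98963, 96587 and 88496 CPM in vehicle tumors (0.12, SE 0.30, adjusted p = 0.849). In both genes PEGPH20 replicate 4 was among the vehicle libraries, and without PEGPH20 replicate 5 the differences were 0.07 and 0.04. Their ratio was close to constant, at 2.33 ± 0.04 mt-Rnr2 reads per mt-Rnr1 read in PEGPH20 and 2.40 ± 0.06 in vehicle tumors (SD, n = 3 each).

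None of the 7 mRNAs tested passed the threshold, and the lowest limma adjusted p was 0.199. The largest difference was in mt-Cytb, which encodes cytochrome b of complex III. It was at 6347, 8268 and 6363 CPM in PEGPH20 replicates 4, 5 and 6, against 4035, 4744 and 5308 CPM in vehicle replicates 1, 2 and 3. All PEGPH20 libraries were above all vehicle libraries (log2 difference 0.57, SE 0.19, adjusted p = 0.199), and the difference was 0.45 without replicate 5.

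Of the complex I genes, mt-Nd4 was at 10899, 16297 and 11736 CPM in PEGPH20 tumors and 9509, 8689 and 9550 CPM in vehicle tumors, without overlap (log2 difference 0.47, SE 0.21, adjusted p = 0.299, and 0.29 without replicate 5). mt-Nd1 was at 9250, 10544 and 9206 CPM in PEGPH20 tumors and 8213, 8282 and 9138 CPM in vehicle tumors (log2 difference 0.18, and 0.11 without replicate 5). These groups did not overlap, but PEGPH20 replicates 4 and 6 were only slightly above vehicle replicate 3. mt-Nd2 was at 9387, 11456 and 8757 CPM in PEGPH20 tumors and 8354, 8111 and 8842 CPM in vehicle tumors (0.22, and 0.10 without replicate 5), with PEGPH20 replicate 6 below vehicle replicate 3. mt-Nd5 was at 2377, 3009 and 2357 CPM in PEGPH20 tumors and 2265, 2292 and 2261 CPM in vehicle tumors (0.17). Its vehicle libraries were nearly equal, and the difference was 0.06 without replicate 5. mt-Nd3, which also encodes a complex I subunit, had 2 reads in PEGPH20 replicate 4, 1 in replicate 5 and 0 in the others.

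mt-Co1, the catalytic subunit of cytochrome c oxidase, was at 1299, 1933 and 1430 CPM in PEGPH20 tumors and 1017, 1232 and 1241 CPM in vehicle tumors, without overlap (log2 difference 0.40, SE 0.18, limma adjusted p = 0.297, and 0.23 without replicate 5), with the uncertainty about its pseudogene copy given above. mt-Nd6, the complex I subunit that alone among the mRNAs is encoded on the minus strand, was at 18.4, 19.2 and 9.10 CPM in PEGPH20 tumors and 12.0, 13.8 and 17.6 CPM in vehicle tumors. The groups overlapped (0.05, SE 0.31, limma adjusted p = 0.945), and the difference was -0.13 without PEGPH20 replicate 5. It shares 14 bases with mt-Nd5 on the other strand, and no source states whether reads were counted by strand.

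**Figure D3:**
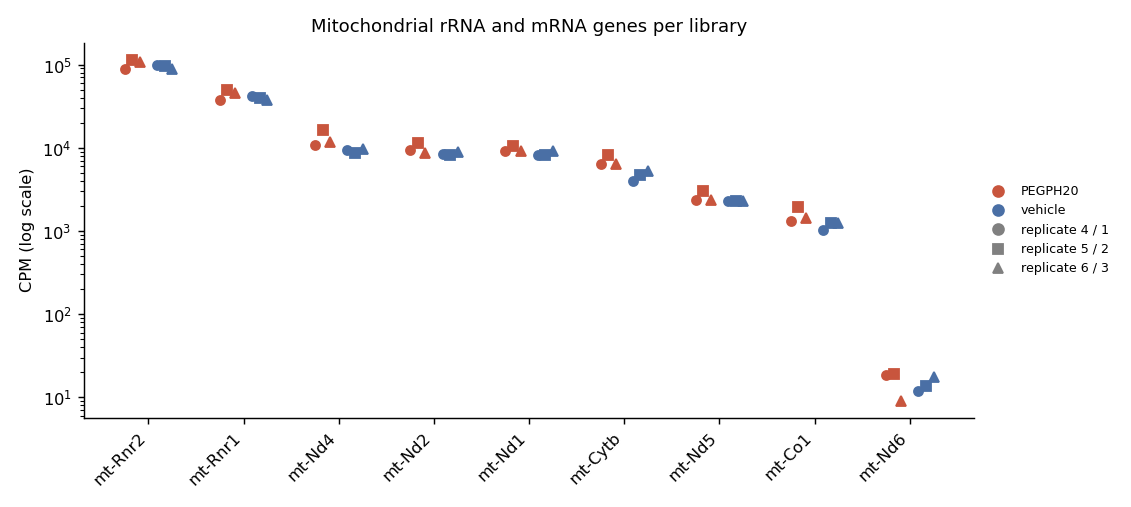
CPM on a log axis of the 2 mitochondrial rRNAs and 7 mRNAs tested, in order of mean level, with PEGPH20 libraries left and vehicle libraries right of each gene's mark. PEGPH20 replicate 5 (square) is the highest library of each of these genes, and mt-Nd6 lies between 9.10 and 19.2 CPM.

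Shares within the mRNA class differed in direction between members. mt-Nd4 held 29.5 ± 2.05% of mRNA reads in PEGPH20 tumors and 26.9 ± 1.34% in vehicle tumors (SD, n = 3 each), and these overlapped. mt-Cytb held 16.02 ± 0.045% of mRNA reads in PEGPH20 tumors and 13.6 ± 1.36% in vehicle tumors (SD, n = 3 each), without overlap. mt-Nd1 held 22.3 ± 1.61% in PEGPH20 and 24.8 ± 0.274% in vehicle tumors, mt-Nd2 22.6 ± 0.942% and 24.5 ± 0.400%, and mt-Nd5 5.92 ± 0.083% and 6.62 ± 0.353% in the same order (SD, n = 3 each). For these 3 genes all PEGPH20 libraries were below all vehicle libraries. Since shares sum to a whole, higher shares of some genes lower those of the others.

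The tRNA gene mt-Ta, for alanine, is the member that rose. It was at 40.2, 51.7 and 41.4 CPM in PEGPH20 replicates 4, 5 and 6, against 11.1, 6.88 and 7.64 CPM in vehicle replicates 1, 2 and 3. The PEGPH20 mean was 5.21 times the vehicle mean, and the groups were far apart (log2 difference 2.27, SE 0.22, limma adjusted p = 0.0361). It ranked 2 by p among all genes tested. PEGPH20 replicates 4 and 6 were close to each other and to replicate 5, and without replicate 5 the difference was 2.16 (adjusted p = 0.00158). The call was lost without any one of the other libraries, with adjusted p of 0.0786 and 0.137 without PEGPH20 replicates 4 and 6 and 0.0863, 0.303 and 0.342 without vehicle replicates 1, 2 and 3, while the difference stayed between 2.14 and 2.45.

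The tRNA genes for isoleucine and methionine flank the glutamine tRNA gene mt-Tq between mt-Nd1 and mt-Nd2, and both missed the threshold with all libraries. mt-Ti was at 28.6, 44.2 and 25.9 CPM in PEGPH20 tumors, against 5.78, 9.18 and 7.26 CPM in vehicle tumors (log2 difference 1.99, SE 0.27, limma adjusted p = 0.0841). mt-Tm, the tRNA gene with the most reads (3162 in all), was at 288, 330.5 and 240.3 CPM in PEGPH20 tumors, against 139, 135 and 146 CPM in vehicle tumors (1.02, SE 0.15, adjusted p = 0.0841). Neither gene's groups overlapped, and the PEGPH20 means were 4.44 and 2.05 times the vehicle means. Both were higher past the threshold without PEGPH20 replicate 5, at 1.77 (adjusted p = 0.00567) and 0.91 (0.00382), where 0.948% of all genes were. mt-Tq, which lies between them on the opposite strand and shares 3 bases with mt-Ti, was at 24.004, 61.7 and 26.9 CPM in PEGPH20 tumors and 23.6, 23.7 and 24.5 CPM in vehicle tumors. PEGPH20 replicate 5 alone was high, and the difference was 0.50 with it and 0.08 without it.

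A further 4 tRNA genes had groups that did not overlap and an unadjusted p under 0.05, a level that 6.52% of all genes tested reached with a higher value, and did not pass the adjusted threshold. mt-Tl1, for one of the leucine tRNAs, was at 13.8, 41.3 and 15.0 CPM in PEGPH20 tumors and 8.19, 5.35 and 8.03 CPM in vehicle tumors (log2 difference 1.42, limma adjusted p = 0.173). mt-Tl2, for the other leucine tRNA, was at 12.4, 26.7 and 10.5 CPM in PEGPH20 tumors and 4.34, 8.79 and 5.35 CPM in vehicle tumors (1.22, adjusted p = 0.186). In both, PEGPH20 replicate 5 was well above the other PEGPH20 libraries, and the differences were 0.93 and 0.84 without it. mt-Tv, for valine, was at 34.2, 41.7 and 18.2 CPM in PEGPH20 tumors and 13.0, 15.7 and 15.7 CPM in vehicle tumors (0.96, adjusted p = 0.183). mt-Tp, for proline, was at 21.2, 41.7 and 20.5 CPM in PEGPH20 tumors and 14.9, 12.6 and 12.6 CPM in vehicle tumors (0.93, adjusted p = 0.183). Without replicate 5 their differences were 0.73 and 0.61.

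The remaining tRNA genes tested overlapped between groups. mt-Tt, for threonine, was at 22.2, 26.3 and 7.74 CPM in PEGPH20 tumors and 16.4, 11.9 and 12.6 CPM in vehicle tumors (log2 difference 0.29), and the difference was -0.02 without PEGPH20 replicate 5. mt-Tc, for cysteine, was at 5.65, 10.8 and 8.19 CPM in PEGPH20 tumors and 8.19, 3.82 and 6.50 CPM in vehicle tumors (0.37). mt-Tf, for phenylalanine, was at 4.59, 2.92 and 2.73 CPM in PEGPH20 tumors and 3.85, 5.73 and 6.12 CPM in vehicle tumors (-0.50, limma adjusted p = 0.394). It was the only member tested with a difference below 0, and it rests on 65 reads. mt-Ts2, for serine, was below the filter, with 31 reads in all and 0.910 to 5.83 CPM in PEGPH20 and 0.382 to 1.93 CPM in vehicle tumors. mt-Tr, for arginine, had 11 reads in all, at 1.06, 2.08 and 0.455 CPM in PEGPH20 tumors and 0, 0.382 and 0.382 CPM in vehicle tumors, which did not overlap but lay near the level of single reads. mt-Tw and mt-Te had 13 and 2 reads in all libraries.

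**Figure D4:**
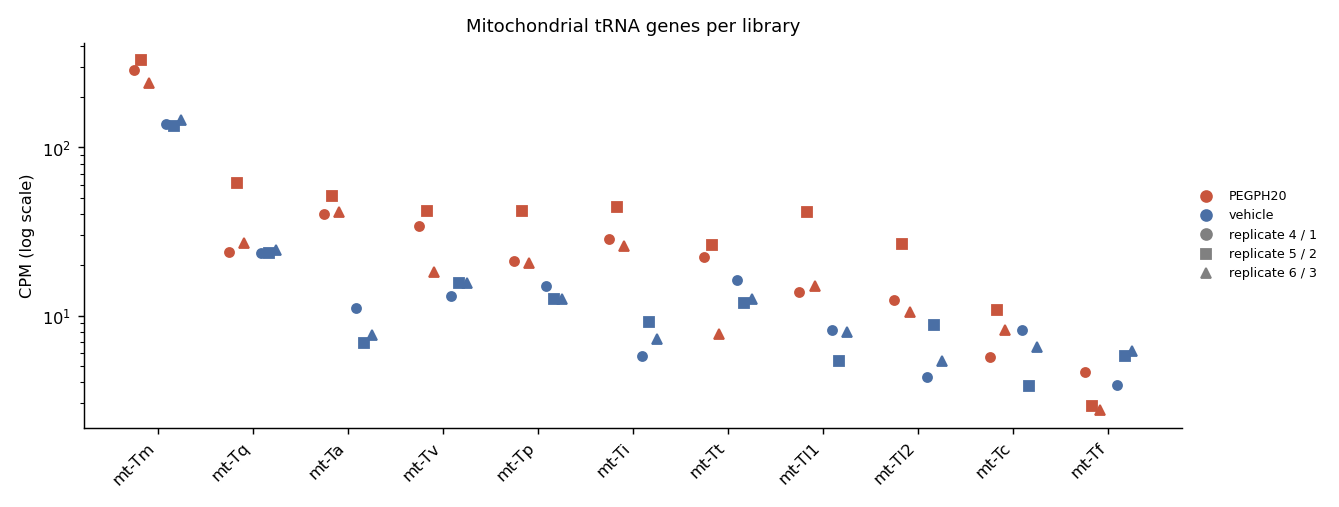
CPM on a log axis of the 11 mitochondrial tRNA genes tested, in order of mean level, with PEGPH20 libraries left and vehicle libraries right of each gene's mark. The groups are separate for mt-Tm, mt-Ta, mt-Tv, mt-Tp, mt-Ti, mt-Tl1 and mt-Tl2, and only PEGPH20 replicate 5 (square) stands out for mt-Tq.

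The RNA sequences of the 7 tRNA genes that were tested and whose groups did not overlap, written as DNA in the sense of the tRNA and taken from GENCODE M21 transcripts, are shown so that their lengths and composition can be compared. Capitals mark the anticodon.
mt-Ta: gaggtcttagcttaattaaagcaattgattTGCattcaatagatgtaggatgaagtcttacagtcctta
mt-Ti: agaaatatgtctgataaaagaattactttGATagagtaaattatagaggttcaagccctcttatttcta
mt-Tm: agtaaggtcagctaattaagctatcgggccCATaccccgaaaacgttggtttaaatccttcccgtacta
mt-Tl1: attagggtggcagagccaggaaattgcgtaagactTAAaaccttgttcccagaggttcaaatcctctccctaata
mt-Tl2: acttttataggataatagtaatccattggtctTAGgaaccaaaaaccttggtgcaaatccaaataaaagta
mt-Tv: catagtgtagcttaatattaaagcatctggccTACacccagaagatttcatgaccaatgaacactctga
mt-Tp: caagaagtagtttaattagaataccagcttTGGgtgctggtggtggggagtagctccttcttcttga
On GRCm38 these lie at chrM:5018-5086 (mt-Ta, minus strand), chrM:3706-3774 (mt-Ti, plus), chrM:3845-3913 (mt-Tm, plus), chrM:2676-2750 (mt-Tl1, plus), chrM:11671-11741 (mt-Tl2, plus), chrM:1025-1093 (mt-Tv, plus) and chrM:15356-15422 (mt-Tp, minus). The genes are 67 to 75 bases long, no longer than a read of 75 nt, so that a full-length read on a tRNA would reach its ends or run into neighbouring genes. Their assignment is likewise unknown here. The longest run of A within these genes is 3 bases in mt-Ta and mt-Tv and 4 in mt-Ti, mt-Tm and mt-Tl1. It is 5 in mt-Tl2, 2 in mt-Tp and 8 in mt-Nd2, the mRNA gene next to mt-Tm. In mt-Tr it is 8 as well, with 11 reads in all libraries, against 3162 reads for mt-Tm. Whether runs of A go with read numbers was not tested. Among the 22 mitochondrial tRNA genes none had an annotated nuclear transcript that matched 50 or more bases at 95% identity, and copies outside annotated transcripts were not searched.

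The leading tRNA genes were also set against a nearby longer gene. The pairs were chosen after their values were seen. All pairs lie on the plus strand except mt-Ta and mt-Nd2, which lie on opposite strands. Per 1000 mt-Nd2 reads there were 30.7, 28.8 and 27.4 mt-Tm reads in PEGPH20 tumors, against 16.6, 16.6 and 16.6 in vehicle tumors. For mt-Ta there were 4.29, 4.51 and 4.73 reads per 1000 mt-Nd2 reads in PEGPH20 tumors, against 1.33, 0.848 and 0.865 in vehicle tumors. In these ratios PEGPH20 replicate 5 lay between the other PEGPH20 libraries, and the log2 differences of 0.80 and 2.18 were 0.81 and 2.18 without it. Per 1000 mt-Nd1 reads there were 3.09, 4.19 and 2.82 mt-Ti reads in PEGPH20 tumors and 0.704, 1.11 and 0.795 in vehicle tumors. The mt-Ti ratio thus spread within each group but did not overlap between them, and neither did mt-Tl1 per 1000 mt-Rnr2 reads, at 0.154, 0.361 and 0.141 in PEGPH20 tumors and 0.0828, 0.0554 and 0.0907 in vehicle tumors, with PEGPH20 replicate 5 far above the others. By contrast, mt-Tl2 per 1000 mt-Nd4 reads was 1.13, 1.64 and 0.892 in PEGPH20 tumors and 0.456, 1.01 and 0.560 in vehicle tumors, which overlapped. mt-Tv per 1000 mt-Rnr1 reads overlapped too, at 0.907, 0.833 and 0.400 in PEGPH20 tumors and 0.314, 0.399 and 0.416 in vehicle tumors. No such ratio was taken for mt-Tp.

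**Figure D5:**
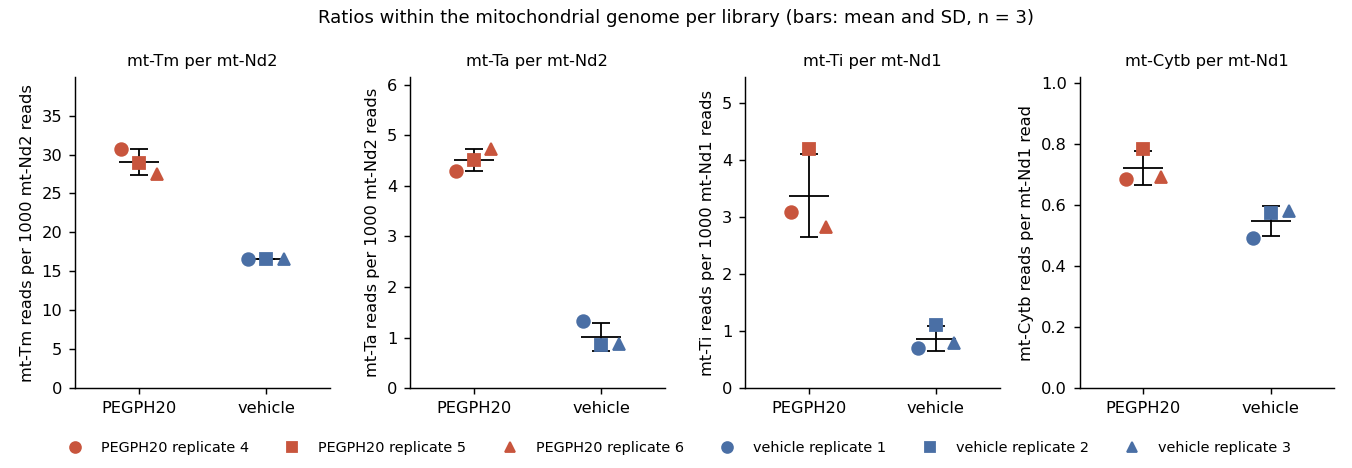
Reads of mt-Tm and mt-Ta per 1000 reads of mt-Nd2, of mt-Ti per 1000 reads of mt-Nd1, and of mt-Cytb per read of mt-Nd1 in each library, PEGPH20 left and vehicle right, with the group mean and SD as black bars (n = 3). The mt-Tm ratio is 27.4 to 30.7 in PEGPH20 and 16.6 in each vehicle library. No ratio shown overlaps between groups, but those of mt-Tl2 to mt-Nd4 and of mt-Tv to mt-Rnr1, not shown, do.

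Within the tRNA class mt-Ta held 8.48 ± 1.23% of tRNA reads in PEGPH20 and 3.42 ± 0.87% in vehicle tumors, and mt-Ti 6.11 ± 0.35% and 2.98 ± 0.75% in the same order (SD, n = 3 each), without overlap in either. mt-Tm held 54.4 ± 5.52% in PEGPH20 and 56.2 ± 1.15% in vehicle tumors, which overlapped, and the difference of -1.83 percentage points was 1.35 without PEGPH20 replicate 5. mt-Tq held 6.72 ± 2.09% in PEGPH20 and 9.60 ± 0.18% in vehicle tumors, mt-Tf 0.665 ± 0.248% and 2.10 ± 0.489%, and mt-Tt 3.37 ± 1.36% and 5.46 ± 0.934%, in each case with all PEGPH20 libraries lower. The class without mt-Ta, mt-Ti and mt-Tm summed to 142, 262 and 112 CPM in PEGPH20 tumors, against 94.9, 91.4 and 93.3 CPM in vehicle tumors. The groups stayed apart, at a log2 difference of 0.79 with and 0.43 without PEGPH20 replicate 5. As a part of mitochondrial reads it was 0.0847%, 0.121% and 0.0583% in PEGPH20 tumors, against 0.0545%, 0.0539% and 0.0573% in vehicle tumors. In this measure PEGPH20 replicate 6 was only slightly above vehicle replicate 3. The log2 difference was 0.61, or 0.35 without PEGPH20 replicate 5.

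By strand of origin, 19 of the genes with a row lie on the plus strand and 6 on the minus strand. The minus strand genes, mt-Nd6 and the tRNA genes mt-Tq, mt-Ta, mt-Tc, mt-Te and mt-Tp, summed to 109, 185 and 106 CPM in PEGPH20 tumors, against 69.9, 60.8 and 69.6 CPM in vehicle tumors. The groups did not overlap, and the log2 difference was 0.95, or 0.69 without PEGPH20 replicate 5. Of these sums mt-Ta alone gave 40.2, 51.7 and 41.4 CPM in PEGPH20 tumors and 11.1, 6.88 and 7.64 CPM in vehicle tumors. Of the 5 minus strand genes tested, 3 overlapped between groups. The plus strand genes, which include both rRNAs, overlapped between groups, at 16.7%, 21.6% and 19.2% of reads in PEGPH20 tumors and 17.4%, 16.9% and 16.3% in vehicle tumors. Sums over tRNA genes alone were split by strand as well, with mt-Tm the largest on the plus strand. Plus strand tRNA genes summed to 408, 523 and 323 CPM in PEGPH20 tumors and 193, 195 and 203 CPM in vehicle tumors (log2 difference 1.06). Minus strand tRNA genes summed to 91.1, 166 and 96.9 CPM in PEGPH20 tumors and 57.8, 47.0 and 52.0 CPM in vehicle tumors (1.12). This sum too includes mt-Ta. Per 1000 plus strand tRNA reads there were 223, 317 and 300 minus strand tRNA reads in PEGPH20 tumors and 300, 241 and 257 in vehicle tumors, which overlapped. Per gene, the median log2 difference was 1.02 over 7 plus strand tRNA genes tested and 0.71 over 4 on the minus strand, or 0.84 and 0.39 without PEGPH20 replicate 5, and the difference between strands was not tested. Without knowledge of the strand setting, reads of a minus strand gene and of the precursor that runs opposite to it cannot be told apart.

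Short RNA genes of the nucleus (snoRNA, snRNA, scaRNA, miRNA and other small types) are given for comparison. Of 604 with a row only 23 passed the filter and were tested. They gave 0 calls, with 1 at an unadjusted limma p under 0.05. Of the 23, 19 had a difference below 0, as did 6811 of all 11389 genes tested. Their median was -0.32 on the log2(CPM + 1) scale, against -0.09 over all genes tested. Of 11 mitochondrial tRNA genes 10 were above 0. In none of the 23 were all PEGPH20 libraries above all vehicle libraries, while 4 were wholly below, as were 17.6% of all genes tested.

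The nuclear genes that transcribe, cut, modify and read mitochondrial RNA were taken from 9 lists. Of 154 entries tested 0 passed the limma threshold with all libraries, and 14 had an unadjusted p under 0.05, where 18% of all genes tested did. Over all 11389 genes tested, 4578 had a difference above 0 and 6811 below. The median of all genes was -0.09, or -0.01 without PEGPH20 replicate 5. In the list of mtDNA transcription, 5 of 6 tested had a difference above 0, with a median of 0.17, or 0.02 without PEGPH20 replicate 5. Tefm, the elongation factor of the mitochondrial RNA polymerase, was at 5.18 ± 1.03 CPM in PEGPH20 and 1.76 ± 1.55 CPM in vehicle tumors (SD, n = 3 each). It rests on few reads, with 1.45, 0.382 and 3.44 CPM in vehicle replicates 1, 2 and 3, where 1 read was worth 0.353 to 0.482 CPM. Tfam, which packages the genome and starts transcription, was at 70.1 ± 5.96 CPM in PEGPH20 and 62.1 ± 6.57 CPM in vehicle tumors, and Mterf3, a repressor of that transcription, at 7.31 ± 1.07 and 6.42 ± 0.78 CPM. In the list of mtDNA replication, 4 of 6 were above 0 (median 0.17, or 0.16 without PEGPH20 replicate 5). Its leading gene by p, the topoisomerase gene Top1mt, was at 3.88 ± 1.20 CPM in PEGPH20 and 6.39 ± 0.56 CPM in vehicle tumors. Primpol, a primase and polymerase, was at 7.33 ± 2.43 and 5.14 ± 1.86 CPM and the exonuclease gene Mgme1 at 10.5 ± 0.78 and 8.53 ± 1.36 CPM.

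Of 12 genes of mitochondrial RNA cleavage 7 had a difference below 0, where 6811 of 11389 genes tested did. The median of the 12 was -0.05, or 0.05 without PEGPH20 replicate 5. Elac2, which cuts the 3' ends of tRNAs, was at 12.4 ± 3.96 CPM in PEGPH20 and 14.6 ± 2.92 CPM in vehicle tumors (SD, n = 3 each). The FASTK family genes Fastkd3 and Tbrg4 were at 7.59 ± 2.43 and 27.0 ± 7.42 CPM in PEGPH20 tumors, against 12.2 ± 1.01 and 39.3 ± 6.50 CPM in vehicle tumors. Of 9 genes of RNA stability and poly(A) tails 5 were below 0 (median -0.09, or 0.06 without PEGPH20 replicate 5). Pnpt1, a subunit of the mitochondrial RNA-degrading complex, was at 26.4 ± 4.64 CPM in PEGPH20 and 19.4 ± 4.62 CPM in vehicle tumors. Lrpprc and Slirp, partners that stabilize mitochondrial mRNAs, were at 98.0 ± 9.76 and 40.6 ± 8.44 CPM in PEGPH20 tumors, against 85.5 ± 3.47 and 31.1 ± 7.34 CPM in vehicle tumors.

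Of 16 genes of tRNA maturation 9 had a difference below 0, where 6811 of 11389 genes tested did. The median of the 16 was -0.16, or 0.06 without PEGPH20 replicate 5. Trnt1, which adds the CCA end, was at 39.9 ± 5.26 CPM in PEGPH20 and 53.4 ± 4.01 CPM in vehicle tumors (SD, n = 3 each). Pus1, a pseudouridine synthase, was at 12.3 ± 2.82 CPM in PEGPH20 and 7.22 ± 0.45 CPM in vehicle tumors, and Mtfmt, which formylates the initiator methionyl-tRNA, at 8.90 ± 0.60 and 5.59 ± 1.55 CPM. The smallest limma adjusted p of this list was 0.208. Of 8 genes of rRNA maturation 6 were below 0 (median -0.20, or -0.11 without PEGPH20 replicate 5). Mettl17 was at 7.74 ± 0.84 CPM in PEGPH20 and 3.57 ± 2.54 CPM in vehicle tumors. It too rests on few reads, with 1.93, 6.50 and 2.29 CPM in vehicle replicates 1, 2 and 3. In the same order, the methyltransferase gene Mrm1 was at 13.0 ± 1.42 and 8.12 ± 2.28 CPM, and the pseudouridine synthase gene Rpusd4 at 3.39 ± 0.70 and 5.15 ± 1.04 CPM.

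Among 18 genes that charge mitochondrial tRNAs 11 had a difference below 0, where 6811 of 11389 genes tested did. The median of the 18 was -0.05, or 0.10 without PEGPH20 replicate 5. Iars2, which charges the isoleucine tRNA encoded by mt-Ti, was at 60.7, 53.3 and 59.2 CPM in PEGPH20 replicates 4, 5 and 6, against 84.8, 92.5 and 103 CPM in vehicle replicates 1, 2 and 3. All PEGPH20 libraries were lower (log2 difference -0.68, SE 0.14, limma adjusted p = 0.135), and without PEGPH20 replicate 5 it was the single entry of the 9 lists past the threshold (-0.63, adjusted p = 0.0329), where 2.98% of all genes tested passed it in either direction. Gars, whose product charges glycine tRNAs in cytosol and mitochondria, was at 83.7 ± 22.5 CPM in PEGPH20 and 119 ± 6.91 CPM in vehicle tumors, and Vars2 at 5.34 ± 1.39 and 8.72 ± 0.50 CPM (SD, n = 3 each). Of 6 biogenesis regulators 3 were above and 3 below 0 (median 0.03, or 0.17 without PEGPH20 replicate 5). The nuclear receptor gene Esrra was at 67.0 ± 7.66 CPM in PEGPH20 and 46.5 ± 11.2 CPM in vehicle tumors, and Gabpa, which encodes a subunit of nuclear respiratory factor 2, at 23.4 ± 1.16 and 28.7 ± 1.40 CPM. The coactivator gene Ppargc1a was at 18.7, 95.02 and 20.5 CPM in PEGPH20 tumors and 28.4, 14.5 and 8.41 CPM in vehicle tumors, with only replicate 5 outside the vehicle range.

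The last list held proteins of the mitochondrial ribosome, which assemble on the rRNAs. Of 73 genes tested 36 had a difference above 0 and 37 below, with a median of -0.0041, against -0.09 over all genes tested, of which 4578 were above 0. Without PEGPH20 replicate 5 the median was 0.073, against -0.01 over all genes. The list had 0 calls and a smallest limma adjusted p of 0.170. Mrpl24 was at 45.1 ± 4.50 CPM in PEGPH20 and 30.7 ± 1.00 CPM in vehicle tumors, Mrpl34 at 95.6 ± 10.05 and 68.6 ± 1.73 CPM, and Mrps31 at 65.3 ± 10.8 and 49.5 ± 5.48 CPM (SD, n = 3 each).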

How the data were processed

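Total RNA (200 ng) from each tumor was made into QuantSeq 3' forward libraries and read from one end over 75 nt, per the labels' protocols. The deposited table holds a signal in CPM, as the values themselves show: gene rows sum to 1000000 per column, and 1 further row of totals was left out. Genome build GRCm38 is named in the submitters' processing notes; for the aligner, read counting, strand setting and use of molecular identifiers: not given in the sources used here. Reads were recovered by division: 100% of values were whole within 1e-06 of a read. Symbols, strands and sequences came from GENCODE M21, which matched 21786 identifiers. No row is 0 in all libraries. Across the 15 pairs of libraries chi-square per degree of freedom was at least 2.42, so none was a duplicate.

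Differences per gene came from limma-trend (limma 3.58.1) on log2(CPM + 1), over genes kept by filterByExpr (minimum count 10) on recovered reads, with Benjamini-Hochberg adjustment over all 11389 genes and a threshold of 0.05. The code was tested on simulated data. edgeR 4.0.16 on the recovered reads called 10 genes. Alternatives were DESeq2 1.42.0, limma-voom, TMM, RLE and nuclear scaling, pseudocounts of 0.1 and 5, other filters, and leaving out each library. Pseudogene copies were matched with blastn 2.17.0. All members were accounted for. Values are given for the mRNAs, rRNAs and tRNAs with a mean of at least 1 CPM, sequences for tRNAs past the threshold or without overlap at an unadjusted p under 0.05, and from each nuclear list the 3 genes with the smallest p-values and any past the threshold. Members and lists were chosen with earlier results of these data known. R 4.3.3 and Python 3.11.15 were used.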

Additional observations from a re-analysis of the deposited data

How the results depend on the processing

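The number of genes called, 9, was 29 without a filter, 18 with limma-voom, 275 with DESeq2 and between 1 and 339 when single libraries were left out, the highest without PEGPH20 replicate 5. Of the mitochondrial genes, 1 was called, against 3 without a filter, 4 with DESeq2 and 0 to 3 when single libraries were left out, with 0 for each library but PEGPH20 replicate 5. With DESeq2 these were mt-Ta, mt-Ti, mt-Tm and mt-Tl1. The difference of mt-Ta was between 1.87 and 2.52 over its 16 alternatives, and it was past the threshold in 11. mt-Nd6 ranged from -0.13 to 0.37 and mt-Tt from -0.024 to 0.80 when single libraries were left out, so neither has a settled direction. The other members tested kept their direction in each alternative run. The differences of the class and strand sums and of the shares of 11 members moved by less than the spread between replicates in each alternative run, but that of the mt-Tm share had no settled direction, at -3.56 to 1.35 percentage points when single libraries were left out. The median of all genes was -0.09 as deposited and 0.01 under RLE scaling, where that of mt-Ta was 2.37. No paired analysis was possible because the groups share no replicate numbers. Genes with few reads, such as mt-Tf with 65, limit what can be seen at this depth.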
